A study of Mus musculus with 8 samples.

Results

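The genes described here encode the translation initiation factors, the proteins that bring the small ribosomal subunit, the initiator transfer RNA and an mRNA together at a start codon. They were taken as the protein-coding mouse genes whose symbol begins with Eif1 to Eif6, without pseudogenes, the eIF2 kinases (Eif2ak genes) and Eif4ebp1. By that rule 50 genes were found among 21418 protein-coding genes in the count files, and 1 further gene that RefSeq lists, Eif4a3l1, was matched to no row by symbol and is only named. They were arranged by complex: eIF1 and eIF1A with 5 genes, eIF2 with 4, eIF2A and eIF2D with 2, eIF2B with 5, eIF3 with 14, eIF4F with 5, and eIF5, eIF5A, eIF5B and eIF6 with 5. The other 10 Eif4 genes, Eif4a3 among them, were grouped as partners of eIF4F, a name that does not imply binding to it.

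In textbook initiation, the trimer eIF2 delivers the initiator transfer RNA in its GTP-bound form, and eIF2B is the exchange factor that reloads eIF2 with GTP. eIF1, eIF1A and the large scaffold eIF3 hold the small subunit ready for scanning, while eIF4F, made of the cap-binding protein eIF4E, the scaffold eIF4G and the helicase eIF4A, recruits the capped mRNA. eIF5 stimulates GTP hydrolysis by eIF2 at the start codon, and eIF5B then joins the large subunit. Amino acids act on this pathway at several points. The kinase GCN2 (gene Eif2ak4) phosphorylates the alpha subunit of eIF2, which turns eIF2 into an inhibitor of eIF2B, and mTORC1 frees eIF4E from the eIF4E-binding proteins and favours mRNAs that begin with a terminal oligopyrimidine (TOP) tract.

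The cells were KRPC-A, a pancreatic tumour cell line from genetically engineered C57BL/6 mice, in a Gcn2 wild-type (WT) and a Gcn2 knockout (KO) version. Each was kept for 1 h in amino-acid-replete or in leucine-free medium, and RNA-seq and ribosome footprints, the mRNA fragments that ribosomes protect from ribonuclease I, were counted from each of the 4 conditions. The labels do not say what was removed from Gcn2 or whether the KO version is 1 clone. Each of the 8 groups is 1 library, so every ratio below compares single libraries rather than conditions, and no test was possible.

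The RNA-seq libraries held 49136610 to 60680169 counted reads and the footprint libraries 2671491 to 9993211, fewest in WT leucine-free cells. Eif2ak4, the targeted gene, was at 85.7 and 69.7 CPM of RNA (reads scaled to a library total of 1000000 and normalised) in WT replete and WT leucine-free cells and at 13.6 and 16.7 CPM in the KO libraries in the same order, which went with the labels. Of 10 markers of pancreatic duct and epithelium 7 reached 1 CPM, and the list summed to 244 and 333 CPM of RNA in WT cells (replete and leucine-free) and to 484 and 1110 CPM in KO cells. Epcam was at 0 in all 4 RNA libraries and Krt19 at 0.226 to 0.595 CPM. No acinar marker of 5 and no immune or endothelial marker of 6 reached 1 CPM, while 4 of 7 fibroblast and mesenchyme markers did, with sums of 1150 to 1600 CPM that were mostly Vim. The duct sum was mostly Sox9 and Krt18. Sox9 was at 153 and 187 CPM in WT and at 291 and 751 CPM in KO cells (replete and leucine-free). Krt18 was at 59.5 and 105 CPM in WT and at 145 and 283 CPM in KO cells. The duct sum differed between the genotypes and between the media in the same libraries as the values below, and its part in them was not tested. In such bulk libraries fewer cells of a type and less RNA per cell cannot be told apart, and a change shared by all genes of a library cannot be seen.

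The first bases of some initiation factor mRNAs are shown because TOP mRNAs are defined by a pyrimidine run that starts with a C at the cap. The sequences come from RefSeq (GRCm38.p6) and run from 10 bases before to 20 bases from the annotated start, written 5′ to 3′ on the gene's own strand. Capitals mark a run of at least 5 pyrimidines that begins with a C exactly at the annotated start.
Eif2s3x (chrX:94212632-94212661, minus strand): gagcattttcCTTTTCTCTCCgagcaagat
Eif3f (chr7:108934405-108934434, plus strand): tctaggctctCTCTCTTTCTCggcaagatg
Eif3l (chr15:79075213-79075242, plus strand): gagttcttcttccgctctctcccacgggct
Eif4b (chr15:102073763-102073792, plus strand): tcccgtcggacgccgcgccaccccctcgcg
Eif2s1 (chr12:78862062-78862091, plus strand): ggttgggcgaagcgcacgctgaggagcttc
Eif5 (chr12:111538091-111538120, plus strand): cgacgtgcatgcgagccaatgacaagagaa
Of the 39 initiation factor genes with a window in that table, only Eif2s3x and Eif3f had such a run, and the run was 11 bases long in both. The run was present in 2.67% of all 17491 genes with a window. With the run allowed to begin within 5 bases of the annotated start it was found in 10 of the 39 genes, Eif3l among them, and in 21.5% of all genes with a window. Annotated starts can differ from the starts used in these cells, and no match says only that these letters are not at that position. Eif3f, Eif3l, Eif4b and Eif2s3x belong, with Eif3e and Eif3h, to the 6 genes of the set that were listed as TOP or mTORC1-sensitive mRNAs. Eif2s1 and Eif5 are shown as the GCN2 substrate and as the gene with the lowest KO to WT footprint ratio of the set in leucine-free medium.

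Genes with an average of at least 30 reads per library in an assay were taken as measured. That left 46 initiation factor genes of 10813 in RNA and 44 of 9168 in footprints, and a gene could pass through a single library where it was high. Where 4 values are given, the first pair is from WT cells and the second from KO cells, each with replete before leucine-free medium. Not measured in either assay were Eif2s3y, the Y-linked copy of the eIF2 gamma gene, Eif4e3 and Eif4e1b, relatives of the cap-binding protein gene, and Eif4ebp3, an eIF4E-binding protein gene. Eif3j1 and Eif3j2, both genes for the loosely bound eIF3 subunit j, were measured in RNA only. Eif3j1 had 979, 955, 746 and 717 RNA reads, but 4, 5, 2 and 5 footprints. These 2 genes are near-identical, and a read that fits several places equally well was not counted, so both values are uncertain. Other genes also overlap 20.2% of the exonic bases of Eif3j1.

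Initiation factor genes took 1.76%, 1.79%, 1.66% and 1.58% of the protein-coding RNA reads and 1.54%, 1.52%, 1.44% and 1.38% of the footprints. Eif4g2, which encodes a relative of eIF4G that lacks the eIF4E-binding part, made up 29% to 34.9% of the RNA reads of the set. Its RNA was at 5728, 5210, 5743 and 5351 CPM, and its footprints were at 1166, 1252, 1097 and 1485 CPM. Eif5a, which encodes a factor of elongation and termination that carries hypusine, had the most footprints per kilobase of exon in WT replete cells, at 549.6 CPM per kilobase. On the same per-kilobase scale the footprints of the eIF3 core genes Eif3b and Eif3c were at 269.6 and 249.7, those of the eIF2 alpha gene Eif2s1 at 48.99 and those of the cap-binding protein gene Eif4e at 7.325. Exon length includes untranslated regions, where few footprints fall, so the per-kilobase footprint level is lower for a gene with long ones.

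**Figure D1:**
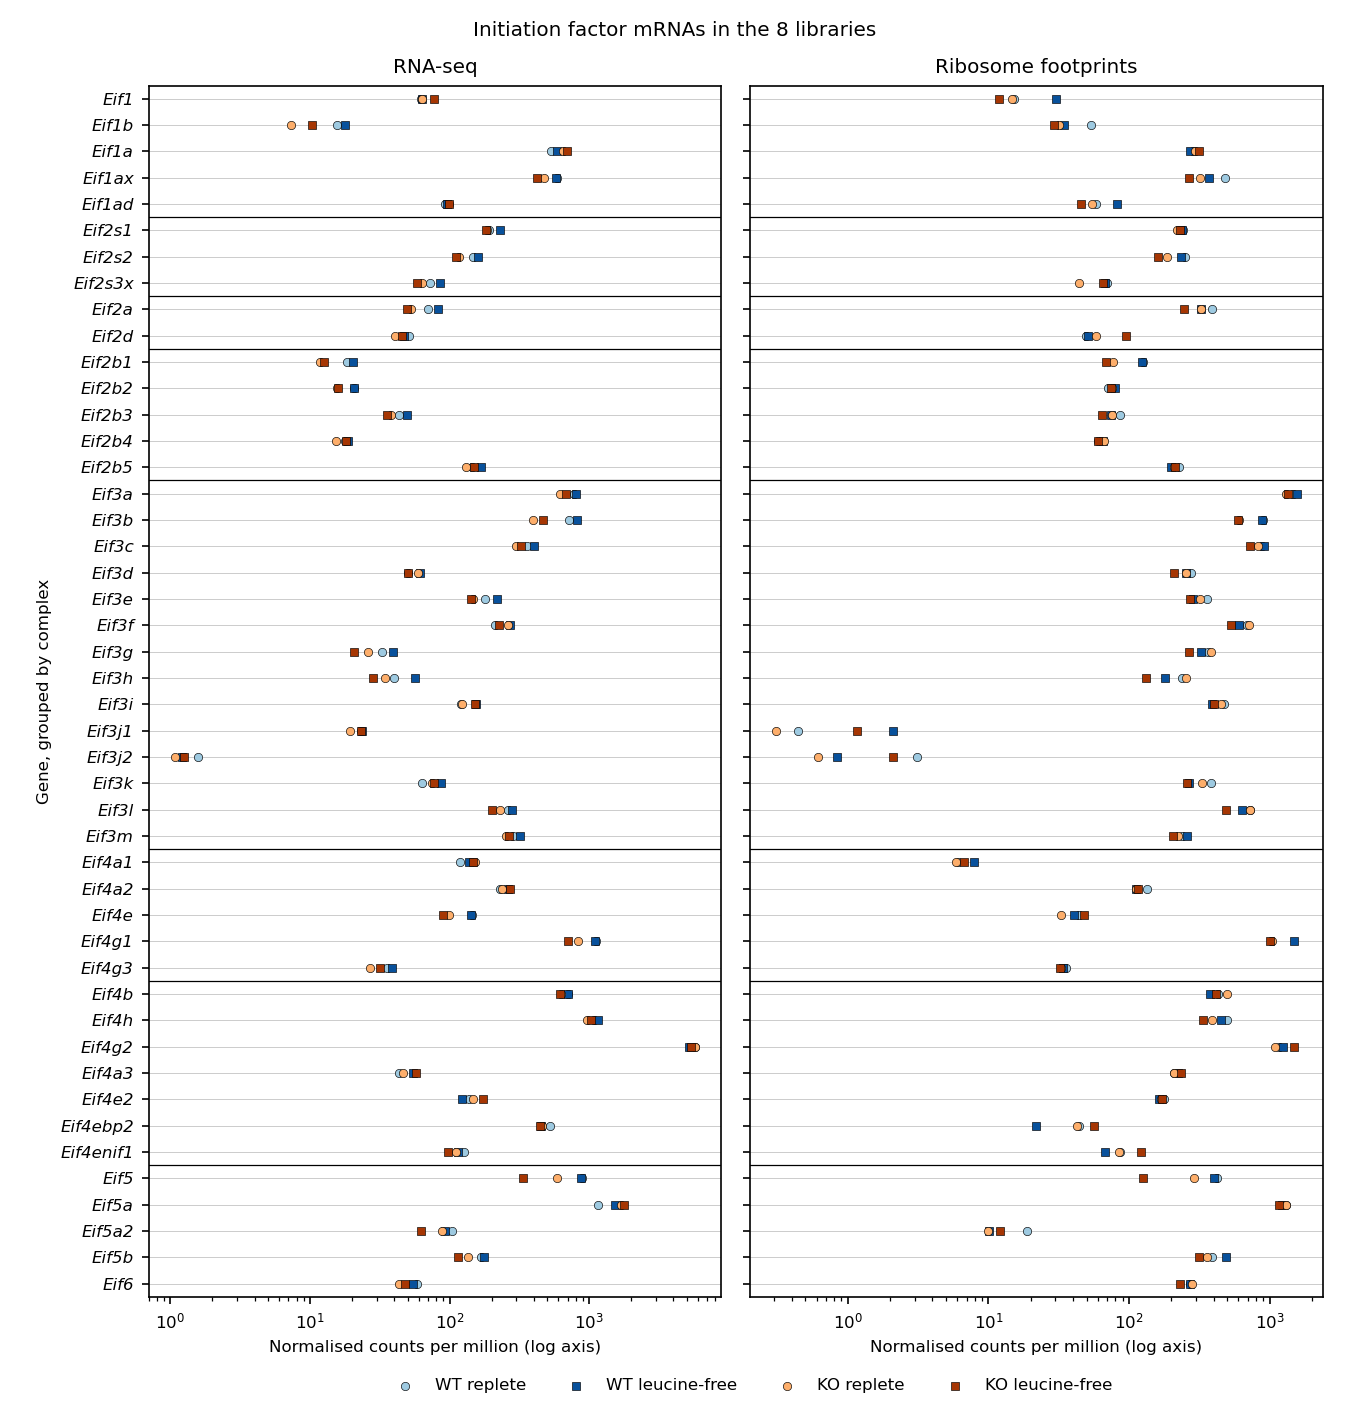
Normalised CPM (log axis) of the 46 initiation factor genes measured in RNA, in RNA-seq (left) and footprints (right), grouped by complex, with 1 point per library. Eif2s1 has its 4 points close together, while Eif5 has its KO leucine-free point lowest in both assays and Eif1 has its WT leucine-free footprint point highest.

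Translation efficiency (TE) was taken as the footprint CPM of a gene divided by its RNA CPM, on the log2 scale. RNA reads come from whole exons but few footprints from untranslated regions, so TE is lower for a gene with long ones. How far this sets the TE levels and ranks below was not tested. The complex medians of TE differed in every condition. The median gene of eIF2B was at 1.76 in WT replete cells and that of eIF3 at 1.6, against 0.36 for all 44 measured initiation factor genes and 0.04 for all 9096 genes measured in both assays. The median of eIF2 was 0.35, that of the eIF5 group 0.17 and that of eIF1 and eIF1A -0.67. That of eIF4F was -0.75 and that of the eIF4F partners -0.70, with Eif4a3 of that group at 2.27. The eIF4F value is that of Eif4a2, which has near-identical copies in the genome and 13.3% of its exonic bases overlapped by other genes. Of the other eIF4F genes, Eif4a1 was at -4.28, Eif4e at -1.72, Eif4g1 at -0.11 and Eif4g3 at 0.01. All eIF1 and eIF1A genes but Eif1ad, which holds that median, have near-identical copies too. In KO replete cells the eIF2B and eIF3 medians were 2.11 and 1.59 and the eIF4F median was -1.07.

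Single genes spread widely within a complex. Eif3g, a subunit of the eIF3 scaffold that contacts the mRNA, had the highest TE of the set in WT replete cells, 3.46, at the 97.8 percentile of measured genes. Eif3m, another eIF3 subunit, was at -0.25. Eif2b1, the eIF2B alpha gene, was at 2.78, while Eif2b5, which encodes the catalytic epsilon subunit, was at 0.65. Eif4ebp2, which encodes a repressor that binds eIF4E, was at -3.57, the 0.803 percentile, with 22045 RNA reads and 401 footprints. The lowest TE was that of Eif4a1, the main eIF4A helicase gene, at -4.28 from 4980 RNA reads and 55 footprints. Near-identical copies of Eif4a1 exist elsewhere in the genome, and 6.62% of its exonic bases are overlapped by other annotated genes, so shared reads were not counted and its level is uncertain in both assays.

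**Figure D2:**
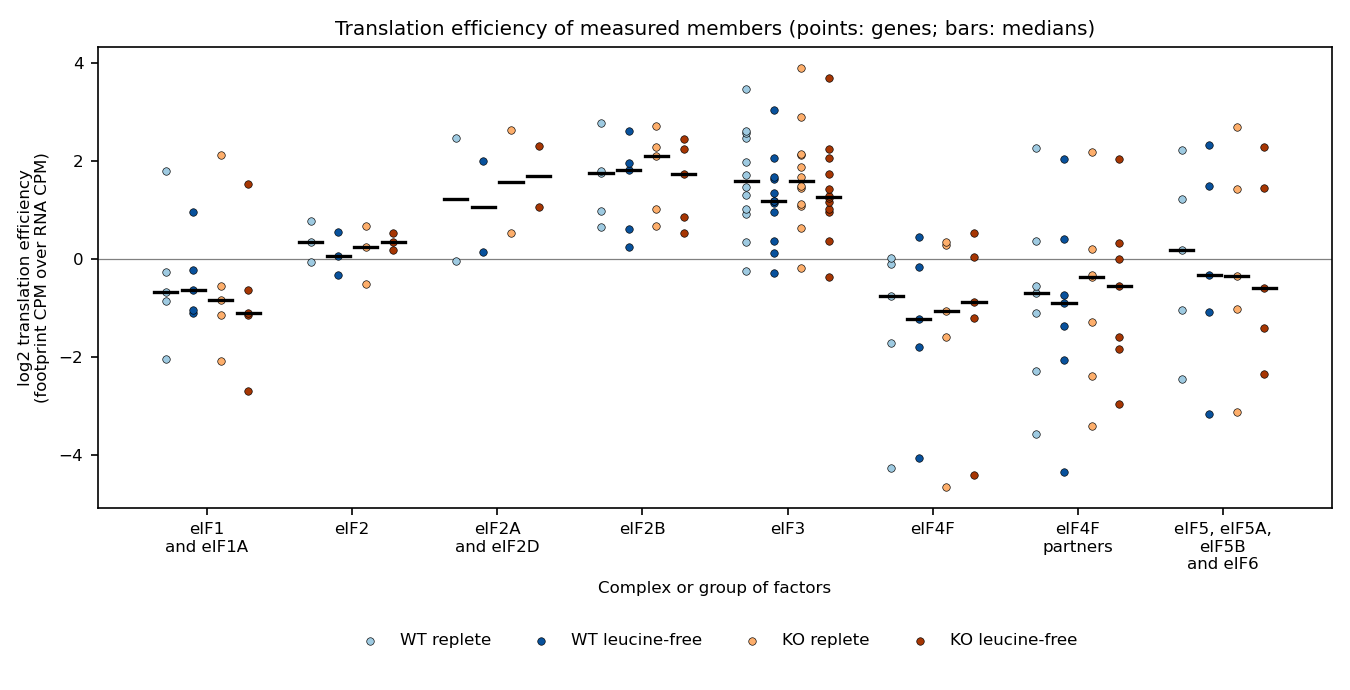
Log2 translation efficiency (footprint CPM over RNA CPM) of the 44 measured initiation factor genes by complex, with 1 point per gene and a bar at the median of each complex in each of the 4 conditions. The eIF2B and eIF3 points lie mostly above 0 in all 4 conditions, and the eIF4F medians lie between -1.23 and -0.75.

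A gene was called higher or lower when its ratio passed 1.5-fold (0.585 on the log2 scale) and its 95% counting interval excluded 0. The interval covers counting error only and not differences between cultures. In WT cells, leucine-free against replete medium, no initiation factor gene of 46 was called in RNA, where 3.51% of all measured genes were called higher and 3.03% lower. In footprints 1 of 44 was called higher and 3 lower, against 4.1% and 2.91% of all genes. In TE 1 was called higher and 7 lower, against 7.03% and 7.98% of all genes. The median log2 ratio of the set was 0.13 in RNA, -0.10 in footprints and -0.23 in TE, where the medians of all genes were 0.00, 0.01 and -0.01. In RNA 32 of 46 genes lay above 0, and in TE 32 of 44 lay below 0. Without 12 genes that have near-identical copies in the genome, 1 gene was called in WT footprints and 4 in TE. With the trend with exon length removed, 2 were called higher and 5 lower in TE.

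In KO cells the same change of medium gave 0 called higher and 1 lower in RNA, against 4.94% and 3.98% of all genes. In footprints 1 was called higher and 2 lower, against 6.89% and 4.23%, and in TE 4 higher and 3 lower, against 7.85% and 8.01%. With scaling by total counts 3 were higher and 2 lower in footprints, and in TE 6 were higher and 0 lower. With the length trend removed 2 were higher and 2 lower in footprints, and 4 higher and 1 lower in TE. Without the 12 genes 2 were higher and 1 lower in TE. The medians of the set were 0.01 in RNA, -0.14 in footprints and -0.19 in TE. WT minus KO, the difference between the responses, was called higher for 4 genes and lower for 6 in footprints, against 6.78% and 8.4% of all genes. For TE it was called higher for 2 and lower for 5, against 10.3% and 11.5%. Without the 12 genes 4 were called in TE. The set medians of that difference were 0.05 in footprints and -0.18 in TE, the latter -0.02 without the 12 genes.

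**Figure D3:**
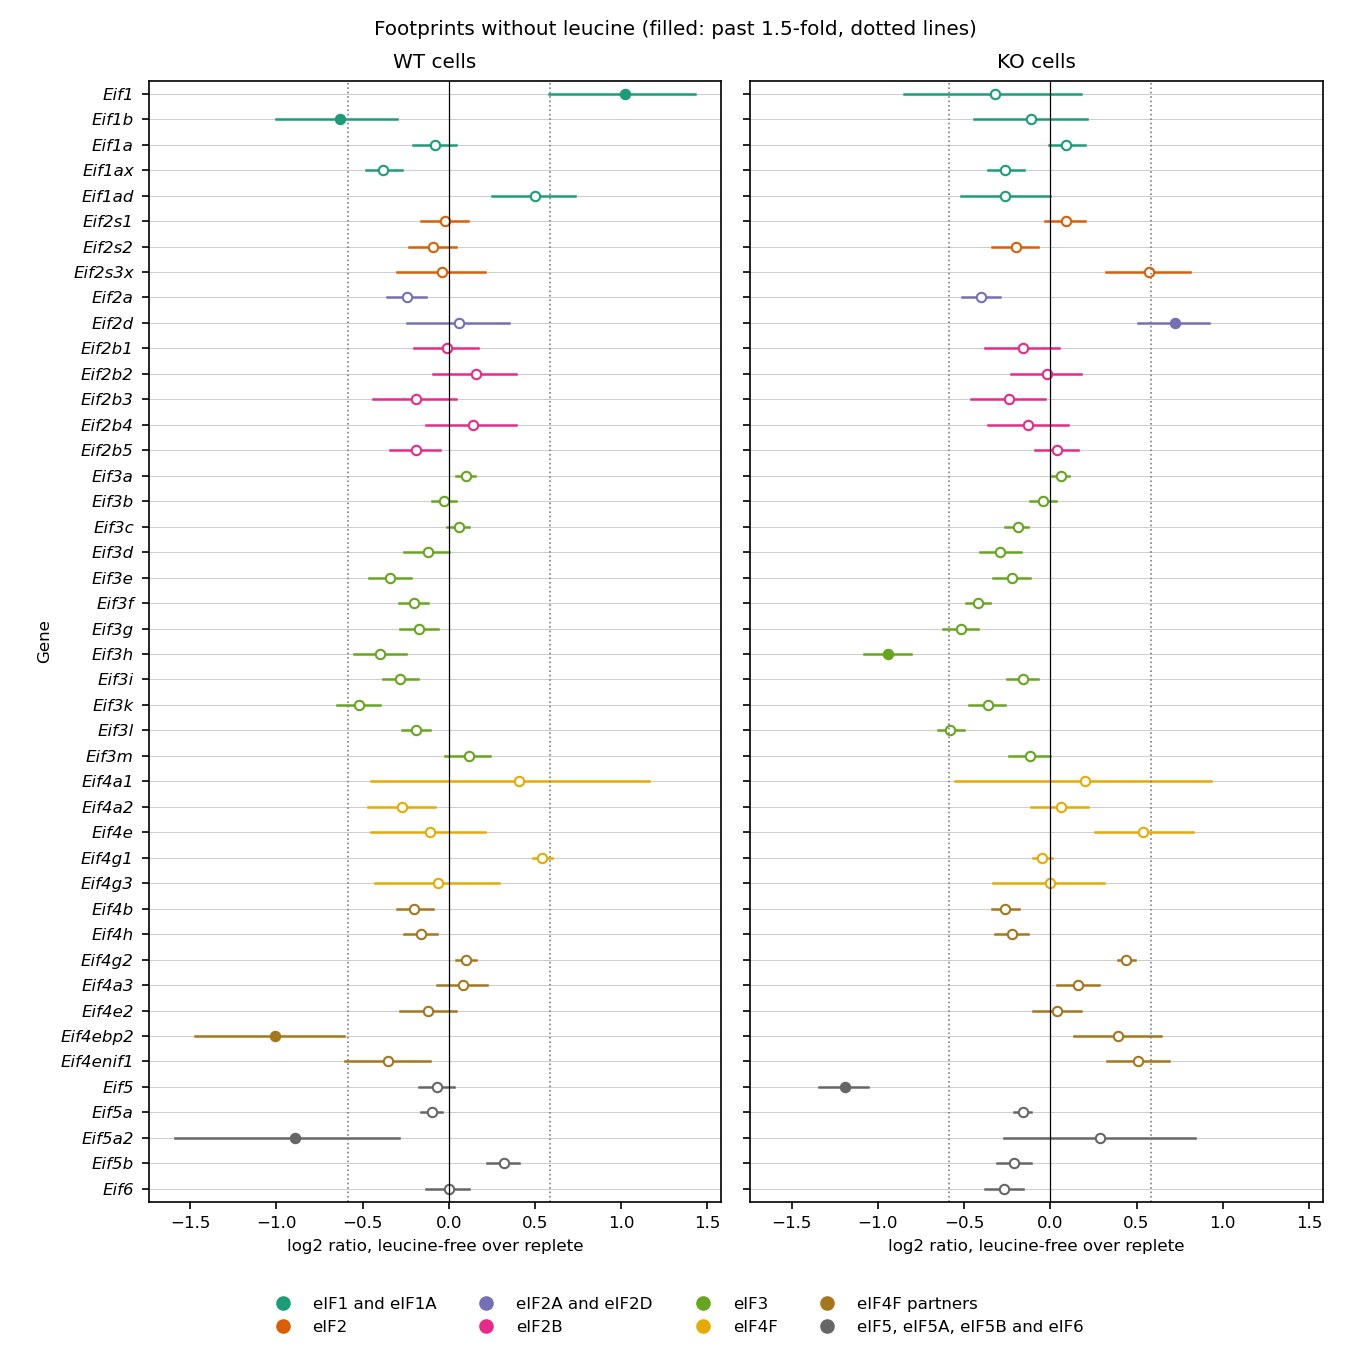
Log2 footprint ratio, leucine-free over replete, of the 44 measured initiation factor genes in WT (left) and KO cells (right), coloured by complex. Bars are 95% counting intervals, dotted lines mark 1.5-fold and filled points passed the call rule, which were Eif1, Eif1b, Eif4ebp2 and Eif5a2 in WT and Eif2d, Eif3h and Eif5 in KO cells.

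The eIF2 trimer, the target of GCN2, had nearly level footprints in WT cells. Eif2s1 (Ensembl ENSMUSG00000021116, chromosome 12, 78861819 to 78887010, GRCm38) had 242.5, 238.3, 218.1 and 231.4 CPM of footprints. The counting interval of the lowest, KO replete, overlapped those of both leucine-free libraries but lay below that of WT replete. Its log2 ratio without leucine was -0.02 (-0.16 to 0.11) in WT and 0.09 (-0.03 to 0.20) in KO cells. Its RNA was at 189.7, 228.5, 184.4 and 181.2 CPM, with WT leucine-free cells highest. Eif2s2, the beta gene, had footprint ratios of -0.09 in WT and -0.20 in KO cells.

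Eif2s3x, the X-linked gamma gene, differed more. Its footprints were at 69.3, 67.3, 44.4 and 65.6 CPM, with KO replete cells lowest. The footprint ratio was -0.04 in WT cells and 0.57 (0.32 to 0.81) in KO cells, and WT minus KO was called lower at -0.60 (-0.95 to -0.26). Its TE was called higher in KO cells, at 0.68, and WT minus KO was -0.96. Each of the KO values uses the KO replete library, which had 287 footprints of this gene. Near-identical copies exist for Eif2s3x too, so its reads are those that fit one place only.

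None of the 5 eIF2B genes was called in any leucine comparison, and with 2.91% to 11.5% of all genes called per direction 0 of 5 is near the background. Their footprint ratios ran from -0.19 to 0.16 in WT cells and from -0.24 to 0.04 in KO cells, and their RNA ratios from 0.00 to 0.22 and from -0.09 to 0.24. By gene, the WT and KO footprint ratios were -0.01 and -0.16 for Eif2b1, 0.16 and -0.02 for Eif2b2, -0.19 and -0.24 for Eif2b3, 0.14 and -0.13 for Eif2b4, and -0.19 and 0.04 for Eif2b5. Eif2d, which encodes a factor that handles ribosomes and transfer RNA outside the eIF2 pathway, was called higher in footprints of KO cells, where total counts added 2 more genes to the higher calls. Its footprints were at 49.3, 51.4, 58.0 and 95.3 CPM, with a ratio of 0.72 (0.51 to 0.92) in KO and 0.06 in WT cells. Eif2a, which encodes an alternative initiator transfer RNA carrier and not a subunit of eIF2, had ratios of -0.24 and -0.40.

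Among genes of start codon selection, Eif1 footprints were called higher in WT cells and Eif5 footprints lower in KO cells. Eif1 (chromosome 11, 100319885 to 100322096), whose protein makes scanning ribosomes reject poor start sites, had 137, 73, 96 and 51 footprints, or 15.1, 30.5, 14.8 and 11.8 CPM. WT leucine-free cells stood above the other 3 libraries, whose counting intervals overlap. The footprint ratio in WT cells was 1.02 (0.58 to 1.43), with RNA at 62.3 and 63.3 CPM in both WT libraries, and the TE ratio was 1.00 (0.58 to 1.41). In KO cells the footprint ratio was -0.32 (-0.85 to 0.18), and WT minus KO was 1.34 (0.70 to 1.98). The KO TE ratio, -0.62, was called lower but was -0.54 with scaling by total counts and -0.56 with the length trend removed, under the threshold. Eif1 has many near-identical copies in the genome, and these counts hold only the reads that fit no copy.

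Eif1b, a close relative of Eif1, went the other way in WT footprints, at 53.4, 34.3, 31.8 and 29.4 CPM. WT replete cells were highest, and the WT ratio was -0.63 (-1.0 to -0.30), or -0.55 with the length trend removed, which ended the call. Eif1ad, which encodes a protein related to eIF1A, had 58.1, 81.9, 54.7 and 45.7 CPM of footprints, and its WT minus KO difference was called higher at 0.76 (0.41 to 1.1). Banf1 overlaps 15.3% of the exonic bases of Eif1ad on the other strand, and D830035M03Rik likewise 12.7% of those of Eif1b. The eIF1A genes Eif1a and Eif1ax had WT footprint ratios of -0.08 and -0.38 and were not called in any leucine comparison.

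Eif5 (ENSMUSG00000021282, chromosome 12, 111538016 to 111546752) carried the largest difference between genotypes of any initiation factor gene in the leucine-free footprints. Its RNA was at 880.6, 867.2, 587.1 and 335.9 CPM, the last from 10420 reads. Its footprints were at 425.2, 405.9, 288.8 and 126.1 CPM, from 3855, 971, 1869 and 544 reads. In both assays the WT libraries were highest and close to each other, KO replete was lower and KO leucine-free lowest. Without leucine the RNA ratio was -0.02 in WT and -0.81 (-0.84 to -0.77) in KO cells, the 1 call in the RNA of KO cells. The footprint ratio was -0.07 (-0.17 to 0.03) in WT and -1.19 (-1.34 to -1.06) in KO cells, and WT minus KO was 1.13 (0.96 to 1.30). On the TE scale the difference was 0.34, below the threshold. Only 1.86% of the exonic bases of Eif5 are shared with another gene, the small nucleolar RNA gene Snora28.

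**Figure D4:**
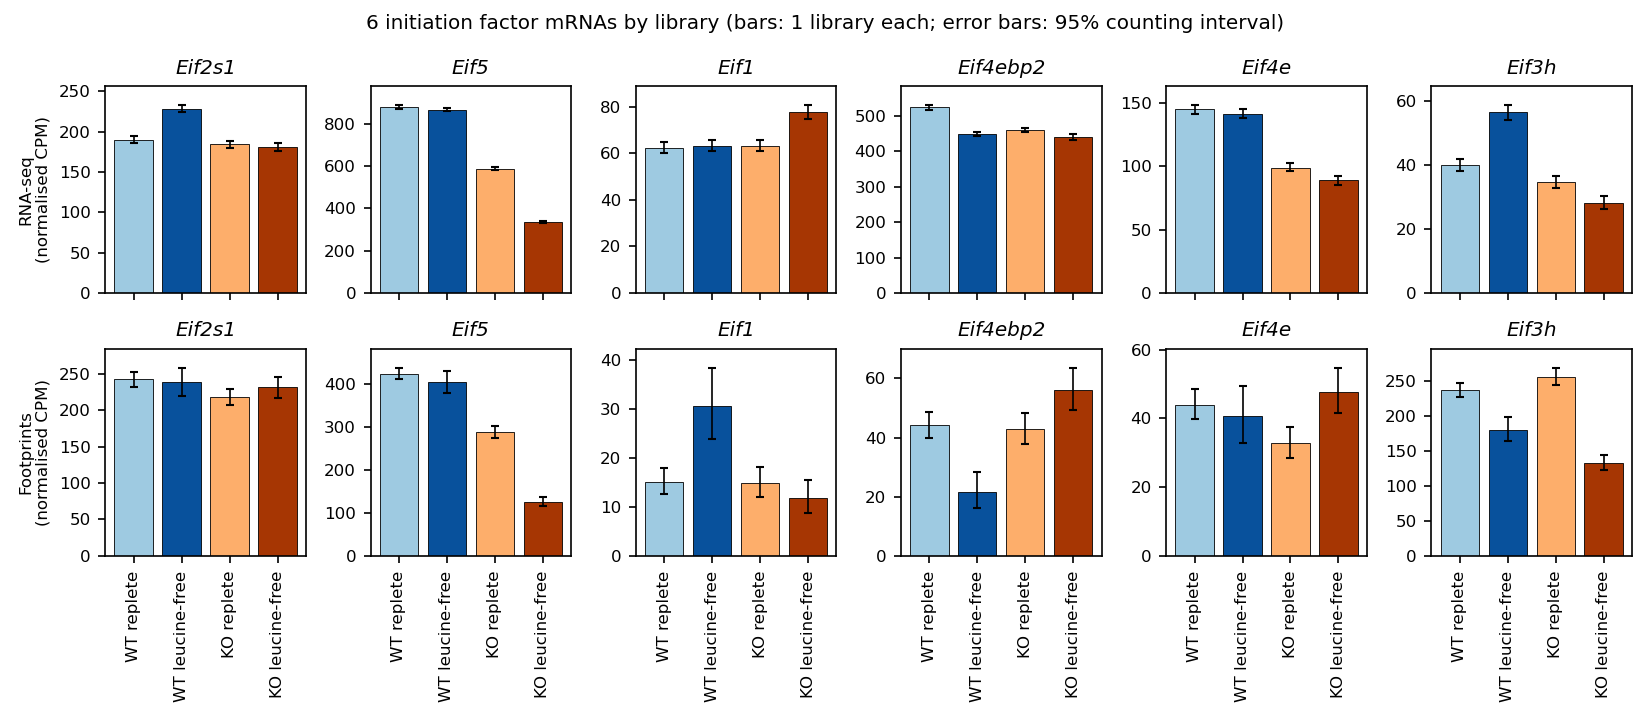
Normalised CPM of 6 initiation factor genes in RNA-seq (top) and footprints (bottom), with 1 bar per library, 95% counting intervals as error bars and all axes starting at 0. Eif5 is lowest in the KO leucine-free libraries in both rows, Eif1 footprints are highest in WT leucine-free cells and Eif4ebp2 footprints are lowest there, while Eif2s1 is close to level in footprints.

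The other genes of this group moved less or rested on few reads. Eif5b, the subunit-joining GTPase gene, had WT and KO footprint ratios of 0.32 and -0.21, and Eif6, which encodes an anti-association factor of the large subunit, 0.00 and -0.27. Rev1 overlaps 16.8% of the exonic bases of Eif5b on the other strand. Eif5a had RNA at 1159, 1527, 1680 and 1779 CPM and footprints at 1306, 1218, 1310 and 1175 CPM, with a TE ratio of -0.50 in WT and -0.24 in KO cells, neither called. Eif5a2, its paralog, had 171, 24, 64 and 52 footprints. Its footprint ratio was called lower in WT cells, -0.89 (-1.59 to -0.29), and its WT minus KO difference in TE, -1.52 (-2.33 to -0.71), was the lowest of the set. In KO cells its TE ratio was 0.79, called higher. There its RNA went from 88.1 to 62.0 CPM and its footprints from 9.89 to 12.06 CPM, not called.

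The genes of the eIF3 scaffold mostly had RNA ratios above 0 and TE ratios below 0 in WT cells. In WT cells the median RNA ratio of 14 genes was 0.22 and 13 lay above 0, the median footprint ratio of 12 was -0.18 and 9 lay below 0, and the median TE ratio was -0.42 with 11 below 0. In KO cells the eIF3 medians were 0.07 in RNA, -0.26 in footprints and -0.24 in TE, with all 12 measured genes below 0 in TE. WT minus KO had an eIF3 median of 0.19 in footprints and -0.21 in TE, and no eIF3 gene was called in either.

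Of the 7 genes called lower in TE in WT cells, 4 were eIF3 genes. These were 4 of the 12 eIF3 genes measured in TE, where 7.98% of all genes were called lower. No eIF3 gene was called in WT RNA or WT footprints. Eif3k, which encodes a small peripheral subunit, had footprints at 385, 268, 332 and 258 CPM and RNA at 62.9, 86.2, 74.9 and 77.7 CPM. Its WT TE ratio was -0.98 (-1.12 to -0.84), and -0.41 in KO cells. Eif3h (chromosome 15, 51786558 to 51865523), a subunit gene of the eIF3 periphery, had RNA at 39.9, 56.5, 34.6 and 28.2 CPM and footprints at 237.2, 180.2, 256.2 and 133.1 CPM. Both leucine-free footprint libraries were below both replete ones. Its WT TE ratio was -0.90 (-1.07 to -0.72), and its KO footprint ratio was called lower at -0.94 (-1.08 to -0.81). The KO TE ratio of Eif3h was -0.65, or -0.57 with scaling by total counts, which ended that call. Eif3e and Eif3i were both at -0.64 in WT TE, and the Eif3i value was -0.58 with the length trend removed, also short of the threshold. Eif3e is among the genes with near-identical copies in the genome. The core genes Eif3a, Eif3b and Eif3c had WT TE ratios of 0.05, -0.22 and -0.11. Eif3d, the cap-binding subunit gene, was at -0.41, but 43.3% of its exonic bases are overlapped by a gene on the other strand.

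**Figure D5:**
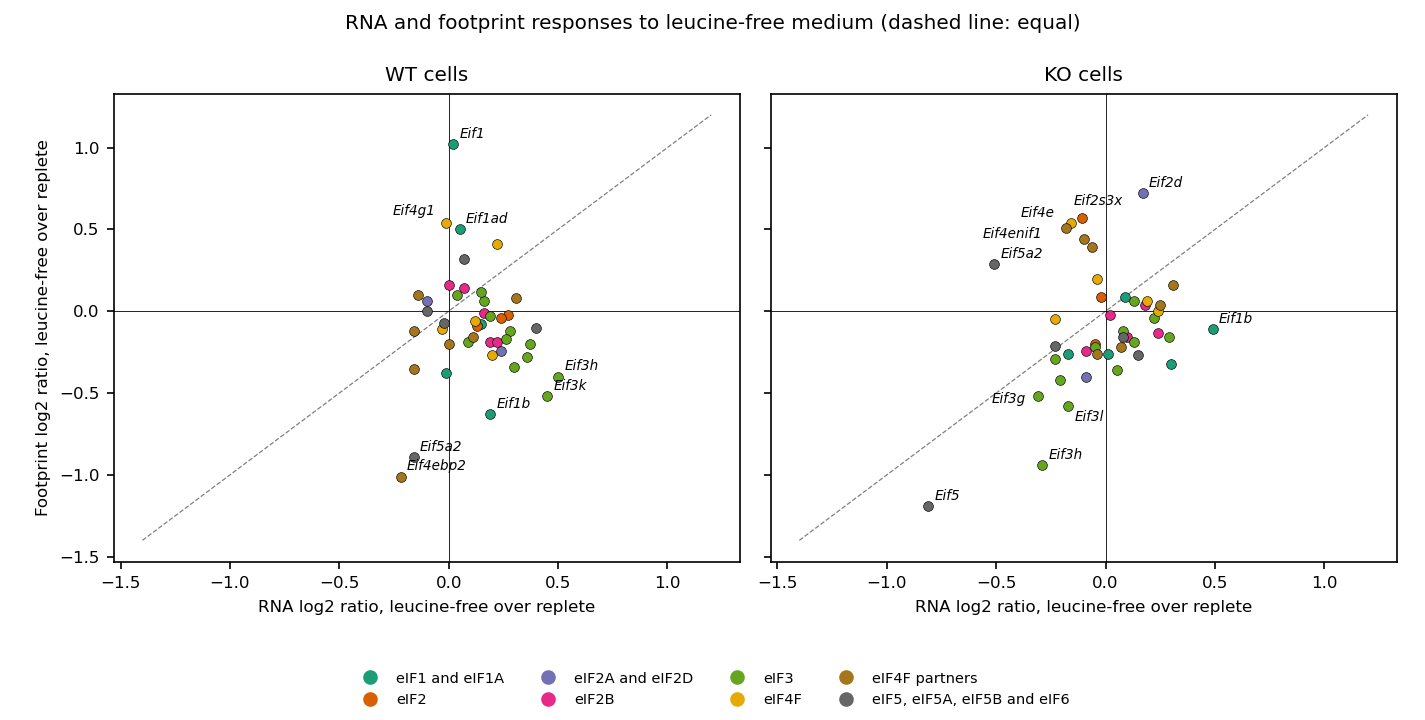
Log2 RNA ratio (horizontal) against log2 footprint ratio (vertical), leucine-free over replete, of the 44 measured initiation factor genes in WT (left) and KO cells (right), coloured by complex; points below the dashed line have a TE ratio below 0. In WT cells Eif3h and Eif3k lie right of and below 0, and in KO cells Eif5 lies lowest in both directions.

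Of eIF4F and its partners, Eif4g1, Eif4e and the eIF4E-binding protein genes Eif4ebp2 and Eif4enif1 were called for WT minus KO in footprints. Eif4g1, the main eIF4G gene, had footprints at 1032, 1503, 1038 and 1004 CPM, with WT leucine-free cells highest and the other 3 libraries close together. Its RNA was at 1111, 1106, 822.4 and 700.4 CPM. The WT footprint ratio of 0.54 (0.49 to 0.60) fell short of the 1.5-fold threshold. WT minus KO was 0.59 (0.51 to 0.67) and was called, but was 0.55 with total counts and 0.57 with median-of-ratios size factors.

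Eif4ebp2 (chromosome 10, 61428491 to 61452661) had 401, 52, 277 and 242 footprints, or 44.2, 21.7, 42.8 and 56.1 CPM. WT leucine-free cells were lowest, outside the counting intervals of the other 3 libraries, while RNA was at 524.7, 449.2, 460.4 and 440.4 CPM. The footprint ratio was -1.01 (-1.47 to -0.61) in WT and 0.39 in KO cells, and WT minus KO was -1.4 (-1.89 to -0.92), the lowest footprint value of the set. Eif4enif1, which encodes an eIF4E-binding protein that carries eIF4E into the nucleus, had 86.4, 67.7, 85 and 121 CPM of footprints, and WT minus KO was -0.86 (-1.16 to -0.56). Its TE ratio in KO cells was called higher at 0.69.

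Eif4e itself (chromosome 3, 138526179 to 138559696) had RNA at 144.8, 141.5, 99.0 and 88.8 CPM and footprints at 44.0, 40.5, 32.8 and 47.8 CPM. Both WT libraries were above both KO libraries in RNA, and in footprints KO replete was lowest, with an interval that overlapped only that of WT leucine-free cells. The TE ratio was called higher in KO cells, 0.70 (0.41 to 0.98), and was -0.08 (-0.40 to 0.24) in WT cells, and WT minus KO was -0.78. Eif4a1 had a WT footprint ratio of 0.41 with an interval that included 0, from 55 and 19 reads. Eif4b, the eIF4A stimulator gene, had footprint ratios of -0.20 in WT and -0.26 in KO cells. Eif4g2 was at 0.10 and 0.44 in footprints, and its TE ratio in KO cells was 0.54, not called.

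KO against WT cells in replete medium compares the genotypes without leucine removal, after 1 h in that medium. The ratios of initiation factor genes lay mostly below 0, and few passed the call rule. The median log2 ratio was -0.21 in RNA with 33 of 46 below 0, and -0.10 in footprints with 32 of 44 below 0. In RNA 0 genes were called higher and 4 lower, against 10.9% and 7.48% of all genes, and in footprints 0 higher and 5 lower, against 7.25% and 4.61%. Lower in RNA were Eif1b at -1.08, the eIF3 core gene Eif3b at -0.85, Eif2b1 at -0.64 and Eif5 at -0.58. The Eif5 call ended with total counts, -0.57, and with the length trend removed, -0.55. Eif3b RNA was at 715, 815, 396 and 462 CPM, and both KO libraries lay below both WT ones. Lower in footprints were Eif5a2 at -0.92, Eif1b at -0.74, Eif2b1 at -0.70, Eif2s3x at -0.64 and Eif1ax at -0.60, the last -0.57 with total counts. Of these 5 genes, Eif2b1 is the only one outside the 12 with near-identical copies in the genome, a list made after the values were seen.

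Eif2b1 was lower in KO cells in both assays and both media. Its footprints were at 125, 124, 77.1 and 68.9 CPM and its RNA at 18.3, 20.4, 11.8 and 12.6 CPM, and in each assay both KO libraries lay below both WT libraries. The KO to WT ratios were -0.64 and -0.70 in RNA and -0.70 and -0.85 in footprints, replete and leucine-free. The other eIF2B genes were not called in either medium or assay. All 5 eIF2B genes lay below 0 in RNA in both media.

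In leucine-free medium, KO against WT, 11 of 46 genes were called lower in RNA and 0 higher, against 9.06% and 12.4% of all genes. The median was -0.26, with 36 below 0. The largest were Eif5 at -1.37, Eif3h at -1.0, Eif3g at -0.93, Eif3b at -0.82 and Eif1b at -0.78, and the others ran from -0.73 to -0.61. In footprints 3 were called higher and 5 lower, against 12.6% and 9.22% of all genes, with a median of -0.19. Higher were Eif4ebp2 at 1.36, Eif2d at 0.89 and Eif4enif1 at 0.83. Lower were Eif5 at -1.69 (-1.84 to -1.53), Eif1 at -1.36, Eif2b1 at -0.85, Eif1ad at -0.84 and Eif5b at -0.64, the last -0.57 with total counts. These comparisons use the same leucine-free libraries as the leucine ratios above, so they are not separate evidence.

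The 6 genes listed as TOP or mTORC1-sensitive mRNAs had a median footprint ratio of -0.20 in WT cells with all 6 below 0, and a TE median of -0.43, also with all 6 below 0. The other 38 measured initiation factor genes had medians of -0.07 and -0.21. Eif3e, Eif3f, Eif3h and Eif3l of the list are eIF3 genes, and the medians of all measured eIF3 genes were -0.18 and -0.42. The part of eIF3 membership in the difference between listed and other genes was not tested. Cytosolic ribosomal protein genes, the classic TOP mRNAs, had WT medians of -0.44 in footprints and -0.79 in TE, and elongation factor genes -0.31 and -0.58. In KO cells the 6 listed genes had medians of -0.34 and -0.22, the other initiation factor genes -0.11 and -0.15, ribosomal protein genes 0.00 and -0.04, and elongation factor genes -0.19 and -0.28. In RNA the listed genes had medians of 0.27 in WT and -0.14 in KO cells, and ribosomal protein genes 0.30 and 0.07. The other initiation factor genes were at 0.11 and 0.08 in RNA, and elongation factor genes at 0.23 and 0.04. Of the listed genes, Eif3e and Eif2s3x have near-identical copies in the genome. The 2 genes with a pyrimidine run at the annotated start had WT TE ratios of -0.28 for Eif2s3x and -0.57 for Eif3f. Their KO TE ratios were 0.68 and -0.22.

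A list of 35 other genes that regulate initiation was examined beside the set, among them eIF2 kinases and phosphatase subunits, eIF4E kinases and poly(A)-binding proteins. In WT footprints 1 was called higher and 4 lower of 35, against 4.1% and 2.91% of all genes. Ppp1r15a, whose protein GADD34 directs a phosphatase to eIF2 alpha, was higher at 1.92, and the poly(A)-binding protein genes Pabpc1 and Pabpc4 were lower at -2.30 and -0.97, with Paip1, which encodes their partner, at -0.77. In KO footprints 4 were higher and 2 lower, against 6.89% and 4.23%. Ppp1r15b, the constitutive partner of the same phosphatase, was lower at -1.0 and Impact, which encodes an inhibitor of GCN2 activation, at -0.67. Higher were the remaining Eif2ak4 reads at 1.15 from 47 and 70 footprints, the eIF2 kinase gene Eif2ak3 at 0.90 and the S6 kinase gene Rps6kb2 at 0.76. Ppp1r15a RNA was called higher in both genotypes, at 0.84 in WT and 0.69 in KO cells. Eif4ebp1, the eIF4E-binding protein gene left out of the set, had RNA ratios of 1.14 (1.00 to 1.29) in WT and 0.54 (0.40 to 0.67) in KO cells. Its footprint ratios were -0.35 and -0.47, neither called, and its TE ratios were -1.49 in WT and -1.0 in KO cells.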

How the data were processed

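The deposited files hold raw read counts per gene, 1 file for each of 8 libraries. Per the file headers, the authors ran featureCounts 1.6.4 on exons (Ensembl release 96) without the options that set strand or admit reads with several alignments or several genes, so reads shared by near-identical copies or overlapping genes are missing from the counts. The submitters' processing notes name cutadapt, STAR, Subread, featureCounts and GRCm38, and per the labels cells were lysed with 100 µg/mL cycloheximide. The strandedness of the RNA-seq libraries is not given in the sources used here.

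Counts of genes that RefSeq (GRCm38.p6, matched by symbol, 579 by an older symbol) lists as protein-coding were scaled within each assay by TMM in edgeR 4.0.16, over genes with a mean count of at least 30. Ratios used a prior count of 0.5. Intervals were exact conditional binomial for a pair of libraries, Wald for translation efficiency and WT minus KO, and exact Poisson for a CPM, all at 95% and for counting error only. Each group was 1 library, so no p-values were computed. The rule for a pair of libraries was tried on simulated counts with counting error only, for the WT leucine ratios in RNA and footprints. Such counts cannot show how the rule fares with differences between cultures. The Wald rule for translation efficiency and WT minus KO was not tried.

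The members, complexes and lists were chosen with earlier results of these data known. Values were given for the eIF2, eIF2B, Eif1, Eif5, Eif5a, Eif4e, Eif4a1, Eif4g1 and Eif4b genes whatever they showed, and for up to 5 further members per direction and comparison among those called, with others by count and range. Regulators outside the set were named up to 3 per direction. Genes beyond these rules (Eif4g2, Eif3g, Eif3m and others given as examples) were chosen after their values were seen. Alternatives were total counts, median-of-ratios size factors, other count minimums, removal of a trend with exon length, and leaving out the 12 members with near-identical copies, the last chosen after seeing the data.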

Additional observations from a re-analysis of the deposited data

Results flagged for a closer look

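Eif1 and Eif5a2 were singled out because their translation efficiency moved in opposite directions without leucine in WT and KO cells, past 1.5-fold in each with the scaling used here. For Eif1 the log2 TE ratio was 1.00 in WT and -0.62 in KO cells, a difference of 1.61 from 137, 73, 96 and 51 footprints. The KO value was -0.54 with total counts and -0.56 with the length trend removed, short of 1.5-fold. For Eif5a2 it was -0.73 in WT and 0.79 in KO cells, a difference of -1.52 from 171, 24, 64 and 52 footprints. Eif5a2 RNA was at 103.1, 92.4, 88.1 and 62.0 CPM, lowest in KO leucine-free cells. With 1 library per group the difference was not tested across cultures. Both genes are among the 12 with near-identical copies, whose shared reads are not in the counts, and the part of those copies in the values was not tested.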

How the results depend on the processing

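No paired analysis was possible because each group is 1 library, and for the same reason no replicate could be left out. Of the 12 medians of the set, the KO leucine median in RNA changed sign, from 0.01 to -0.02 with total counts and with the length trend removed and to -0.01 without the 12 genes that have near-identical copies, and the others kept theirs. The WT minus KO median in TE went from -0.18 to -0.02 without those genes, and ran from -0.25 to -0.09 under the other alternatives. Of 68 called gene values, 61 kept their call with total counts, 67 with median-of-ratios size factors, 62 with the length trend removed and 68 with a mean count of at least 1; all 56 that could be computed with a mean of at least 100 kept it, as did all 43 left without those 12 genes. The calls that were lost stand beside their values in the report, except Eif1b in TE, which went to -0.45 in WT cells with the length trend removed and in KO cells to -0.52 with total counts and -0.54 with the length trend removed; the cause was not tested. The number of genes called changed by over 1.5 times in 7 cases. With a mean count of at least 100, WT footprint calls went from 4 to 2, since fewer genes were tested. Without the 12 genes, the calls of those genes fell away and the others stayed. WT footprint calls went to 1 (Eif4ebp2), WT TE calls from 8 to 4 and KO TE calls from 7 to 3. WT minus KO TE calls went from 7 to 4, and replete KO against WT footprint calls from 5 to 1 (Eif2b1). Those genes held a larger share of these calls than of the members measured, and the part of their copies in this was not tested. With total counts the KO footprint calls went from 3 to 5 (3 higher and 2 lower), and the KO TE calls from 4 higher and 3 lower to 6 higher and 0 lower. A change of scaling moves all genes of a comparison by the same amount. With total counts the median of all measured genes went from 0.00 to 0.05 in KO footprints and from -0.02 to 0.06 in KO TE. The WT leucine-free footprint library is the shallowest and limits the precision of every WT footprint and TE ratio.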
